A study of Mus musculus with 3 samples.

Results

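Semaphorins, plexins and neuropilins form a ligand and receptor system, and 10 of its genes are described here: 5 semaphorins (Sema3a, Sema3c, Sema4a, Sema4d and Sema6d), 2 neuropilins (Nrp1 and Nrp2) and 3 plexins (Plxna1, Plxnb2 and Plxnd1). They were taken by name from the 27179 genes of the deposited table, through their Entrez identifiers. Mouse bone marrow stromal cells labelled as wild type were cultured in 3% O2 and received extracellular vesicles (membrane particles released by cells) for 3 days. The vesicles came from bone marrow plasma of C57BL/6N mice. Ocn-EV vesicles came from mice carrying the CAGS-Snorkel transgene and Ocn-Cre, a driver active in mature osteoblasts, and Prx1-EV vesicles from mice carrying CAGS-Snorkel and Prx1-Cre, a driver active in limb mesenchyme. All-EV vesicles, the control, came from wild-type mice. Each preparation was pooled from 5 mice (2 males and 3 females) aged 6 months. The labels say that an HA antibody on beads captured the vesicles, and do not say how it captured those of wild-type mice.

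Each group was 1 culture sequenced as 1 library (n = 1), so the differences below were not checked against replicates and carry no p-value. Higher and lower compare single libraries. Levels are the authors' normalised counts. Bracketed ranges are 95% exact intervals computed from the reads behind each value, and cover counting error only. A gene counts as apart between 2 libraries when log2((a + 1)/(b + 1)) of its levels passes 1.5-fold. Only genes whose mean level over the 3 libraries reached 50 were compared. Of the 10 genes, 9 passed this minimum. Sema3a, with a mean of 45.9, did not, and its values are given outside the counts.

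Semaphorins are secreted or membrane-bound proteins, first known for steering axons, that also act on blood vessels, immune cells and bone. Plexins are their main receptors and signal through small GTPases to the cytoskeleton. Class 3 semaphorins are secreted and usually need a neuropilin as co-receptor beside the plexin, while classes 4 and 6 sit in the membrane and bind plexins directly. In bone, Sema3a restrains osteoclasts and favours osteoblasts, and Sema4d made by osteoclasts restrains osteoblasts.

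The libraries held 14233978 to 17269204 reads assigned to genes. The label of stromal cells was checked against markers. Of 10 stromal markers, 9 had reads in every library and Lum had 0 in all 3. Their summed level was 13523 with All-EV, 72914 with Ocn-EV and 48829 with Prx1-EV, carried mostly by Col1a1 and Col1a2. Dcn went the other way, at 26.0, 3.11 and 2.62. All 10 macrophage markers were present as well, at a summed level of 228627 with All-EV, 133943 with Ocn-EV and 117184 with Prx1-EV. Lyz2 alone gave 140306, 51741 and 40548 of these sums. With Ocn-EV 4 of them were at least 1.5-fold higher than with All-EV and 3 lower, and with Prx1-EV 3 were higher and 4 lower. Of all genes compared, 13.8% were higher and 13.6% lower with Ocn-EV, and 12.7% and 12.7% with Prx1-EV. Of 7 osteoclast markers, Calcr and Dcstamp had 0 reads in every library and Ocstamp in 2 of them, and the summed level was 14094, 9945 and 11471 in the order All-EV, Ocn-EV, Prx1-EV. Most of that sum was Atp6v0d2 (9249, 8879.8 and 10254), while Ctsk stood at 4185, 843 and 967 and Acp5 at 659, 222 and 247. Of the 3 osteoclast markers compared, 2 were lower in both comparisons (medians −1.57 and −1.41), as was Plxna1. The 7 osteoblast markers summed to 395, 2209.6 and 907, with Bglap and Phex at 0 reads with All-EV and Prx1-EV and Dmp1 at 0 with All-EV. Of 4 osteoblast markers compared, 3 were higher in both comparisons (medians 3.16 and 1.78). The osteoblast sum ran in the same order of libraries as Sema6d and Sema3a. The stromal sum and some macrophage markers ran in that order as well, while the macrophage sum did not. This order therefore does not single out the osteoblast markers. These sums differed between the same libraries as the genes described below, and their part in each result was not tested. In such mixed cultures, fewer cells of a type and less RNA per cell cannot be told apart.

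The starts of Sema3c and Sema3a are shown first, because these secreted ligands went in opposite directions in the Ocn-EV culture. Both lie on chromosome 5 (Sema3a, Entrez 20346, at chr5:13124822-13603485 and Sema3c, Entrez 20348, at chr5:17574816-17730268, GRCm38.p6, both on the plus strand). Each sequence runs from 250 bases before to 50 bases after a transcription start in RefSeq, 5′ to 3′, with CG dinucleotides in capitals. The Sema3c window, chr5:17574566-17574865, covers the 5′ end of its gene. The Sema3a window, chr5:13396534-13396833, lies inside the gene's span, at an internal start and not at the 5′ end of the gene. These windows are therefore not alike in position, and no window at the 5′ end of Sema3a was among those used.
Sema3c: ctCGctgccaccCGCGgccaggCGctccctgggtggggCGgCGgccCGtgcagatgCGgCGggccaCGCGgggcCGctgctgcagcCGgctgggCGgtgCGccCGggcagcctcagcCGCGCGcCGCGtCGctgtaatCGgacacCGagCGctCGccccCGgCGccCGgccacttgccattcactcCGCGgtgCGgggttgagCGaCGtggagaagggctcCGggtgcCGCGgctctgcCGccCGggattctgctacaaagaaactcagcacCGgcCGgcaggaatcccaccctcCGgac
Sema3a: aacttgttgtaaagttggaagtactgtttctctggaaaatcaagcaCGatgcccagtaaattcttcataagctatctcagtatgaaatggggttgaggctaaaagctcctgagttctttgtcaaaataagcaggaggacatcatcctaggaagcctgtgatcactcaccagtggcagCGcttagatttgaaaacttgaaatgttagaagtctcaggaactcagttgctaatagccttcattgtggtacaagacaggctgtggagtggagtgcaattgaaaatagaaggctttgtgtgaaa
The Sema3c window had 42 CG dinucleotides and 75.7% G and C bases, and the Sema3a window had 2 CG dinucleotides and 41.3%. Over the 32851 RefSeq windows of this length in the mouse table, the medians were 7 CG dinucleotides and 52.7%. At least as many CG dinucleotides as in Sema3c were found in 3.03% of windows, and at most as many as in Sema3a in 23.3%. The letters TGANTCA (AP-1) and CATTCC (TEAD) were searched on both strands and were in 7.81% and 14.7% of all windows. Neither was in the Sema3c or the Sema3a window. Of the 10 genes, 9 matched the table, with 16 windows.

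Among the secreted ligands, Sema3c stood far lower in both cultures given vesicles of Cre mice. Sema3c, a class 3 semaphorin that acts through neuropilins with Plxnd1 or class A plexins, stood at 298 with All-EV, 15.5 with Ocn-EV and 23.6 with Prx1-EV, from 263, 15 and 27 reads. The All-EV culture was high and the others were low. The level was 19.2-fold lower with Ocn-EV (11.4 to 34.7) and 12.6-fold lower with Prx1-EV (8.49 to 19.5). In log2 terms the ratios were −4.18 (−5.12 to −3.51) and −3.60 (−4.29 to −3.09). Sema3c reached the minimum mean of 50 only through its All-EV level, so it could be compared only because it was high there, and its place among the lower genes is partly set by that minimum. Between Ocn-EV and Prx1-EV its ratio was −0.57, with an interval that spanned 0 (−1.62 to 0.36). Neutrophil markers and the platelet factor Pf4 were lower in the same libraries. The 6 neutrophil markers summed to 57.7, 15.5 and 6.98 in the order All-EV, Ocn-EV, Prx1-EV, with Elane and Ly6g at 0 reads throughout. Pf4, named after its values were seen, stood at 10461, 1817 and 1577. Their part in the Sema3c result was not tested.

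Sema3a, the class 3 ligand that signals through Nrp1 and class A plexins, was the rarest of the 10 genes with All-EV per length of transcript. It stood at 29.4 with All-EV, 66.3 with Ocn-EV and 41.9 with Prx1-EV, from 26, 64 and 48 reads. The Ocn-EV culture was highest. The level with Ocn-EV was 2.25-fold that with All-EV (1.41 to 3.70). The ratio of Prx1-EV to All-EV was 1.42, with an interval that included equality (0.865 to 2.39). Between Ocn-EV and Prx1-EV the ratio was 1.58 (1.07 to 2.35). The order of these ligands therefore differed between libraries. Per kilobase of transcript, Sema3c exceeded Sema3a 10.9-fold with All-EV (7.29 to 17.0), whereas Sema3a exceeded Sema3c 3.95-fold with Ocn-EV (2.23 to 7.47) and 1.65-fold with Prx1-EV (1.01 to 2.74).

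**Figure D1:**
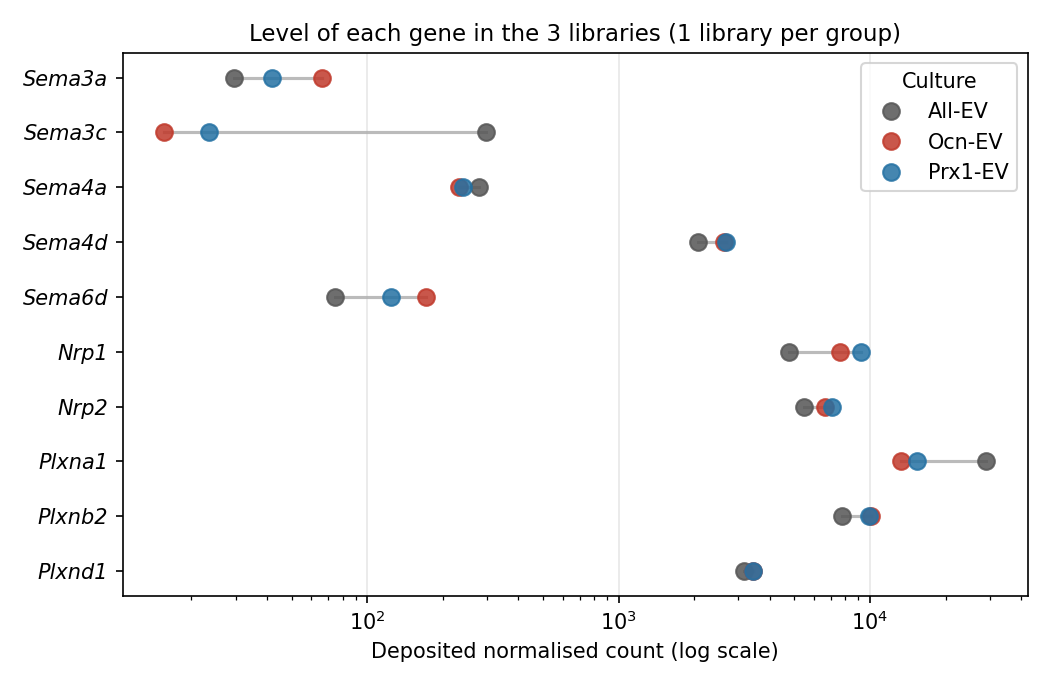
Deposited normalised count of each of the 10 genes on a log axis, with 1 point per library (All-EV grey, Ocn-EV red, Prx1-EV blue) and a grey line over their range. Sema3c spans 15.5 to 298 with All-EV highest, Plxna1 also has All-EV highest, and Sema3a, Sema6d and Nrp1 have All-EV lowest.

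The class 3 group as a whole changed its make-up. Of the reads of all 7 class 3 genes, Sema3c held 263 of 441 with All-EV (59.6%, 54.9 to 64.3), 15 of 282 with Ocn-EV (5.32%, 3.01 to 8.62) and 27 of 264 with Prx1-EV (10.2%, 6.85 to 14.5). Sema3a held 5.90% (3.89 to 8.52), 22.7% (17.9 to 28.0) and 18.2% (13.7 to 23.4). Shares depend on the reads of the whole class, so the smaller Sema3c counts with Ocn-EV and Prx1-EV also raise the Sema3a share. Below the minimum level, Sema3b had 18, 55 and 58 reads and Sema3e 35, 17 and 15, in the same order of libraries. Both were named after their values were seen. Summed per kilobase, the class stood at 103 with All-EV, 72.1 with Ocn-EV and 57.1 with Prx1-EV. Sema3f, which prefers Nrp2, was the only other class 3 gene to reach the minimum level. It stood at 97.3, 125 and 91.6, within 1.5-fold of All-EV in both comparisons. These ligands stayed scarce beside their receptors in every library.

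Sema4d and Sema4a, class 4 semaphorins bound to the membrane, lay within 1.5-fold of All-EV as deposited. Sema4d (Entrez 20354, chr13:51685529-51793678), which binds class B plexins and, on immune cells, Cd72, was the most abundant semaphorin per kilobase in all 3 libraries. It stood at 2066 with All-EV, 2618 with Ocn-EV and 2669 with Prx1-EV, so that All-EV was the lowest. The log2 ratios to All-EV were 0.34 (0.25 to 0.43) and 0.37 (0.29 to 0.45), beyond counting error and short of 1.5-fold. With libraries set to equal totals they were 0.60 and 0.59, just past it. Sema4d held 46.6% (45.0 to 48.1) of the reads of all 20 semaphorin genes with All-EV, 49.1% (47.7 to 50.5) with Ocn-EV and 50.2% (48.9 to 51.5) with Prx1-EV. Sema4a (Entrez 20351, chr3:88435959-88461182), a costimulatory semaphorin of antigen-presenting cells that binds plexins including Plxnd1, stood at 279.5 with All-EV, 231 with Ocn-EV and 239.9 with Prx1-EV. Its log2 ratios were −0.27 (−0.54 to −0.01) and −0.22 (−0.47 to 0.03), the latter with an interval that spanned 0. With equal totals they were −0.02 and 0.00.

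Sema6d (Entrez 214968, chr2:124089943-124667789), a transmembrane ligand of class A plexins, was higher than with All-EV by more than 1.5-fold in both comparisons. It stood at 74.7 with All-EV, 172 with Ocn-EV and 124 with Prx1-EV, from 66, 166 and 142 reads. The groups ran in the order All-EV, Prx1-EV, Ocn-EV. The level with Ocn-EV was 2.30-fold that with All-EV (1.72 to 3.11) and that with Prx1-EV 1.66-fold (1.23 to 2.26). Between Ocn-EV and Prx1-EV the ratio was 1.39 (1.10 to 1.75). After correction for transcript length and GC, its log2 ratios were 0.98 for Ocn-EV and 0.52 for Prx1-EV, the latter under 1.5-fold.

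The co-receptor Nrp1 was higher with both vesicle types, and Nrp2 was higher by less than 1.5-fold as deposited and level with Ocn-EV after correction for length and GC. Nrp1 (Entrez 18186), which lies at chr8:128358591-128505476 and serves both class 3 semaphorins and VEGF, stood at 4749 with All-EV, 7636 with Ocn-EV and 9219 with Prx1-EV. The log2 ratios to All-EV were 0.69 (0.63 to 0.74) for Ocn-EV and 0.96 (0.91 to 1.01) for Prx1-EV. Unlike the ligands Sema3a and Sema6d, Nrp1 was highest with Prx1-EV, and the ratio of Ocn-EV to Prx1-EV was 0.828 (0.804 to 0.853). Nrp2 (Entrez 18187), at chr1:62703317-62818692, stood at 5479.6, 6656 and 7044. Its log2 ratios were 0.28 (0.23 to 0.33) and 0.36 (0.31 to 0.41) as deposited, 0.54 and 0.59 with equal totals, and 0.00 and 0.12 with correction for length and GC. Nrp1 held 46.4% (45.4 to 47.5) of the neuropilin reads with All-EV, 53.4% (52.6 to 54.3) with Ocn-EV and 56.7% (56.0 to 57.4) with Prx1-EV.

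**Figure D2:**
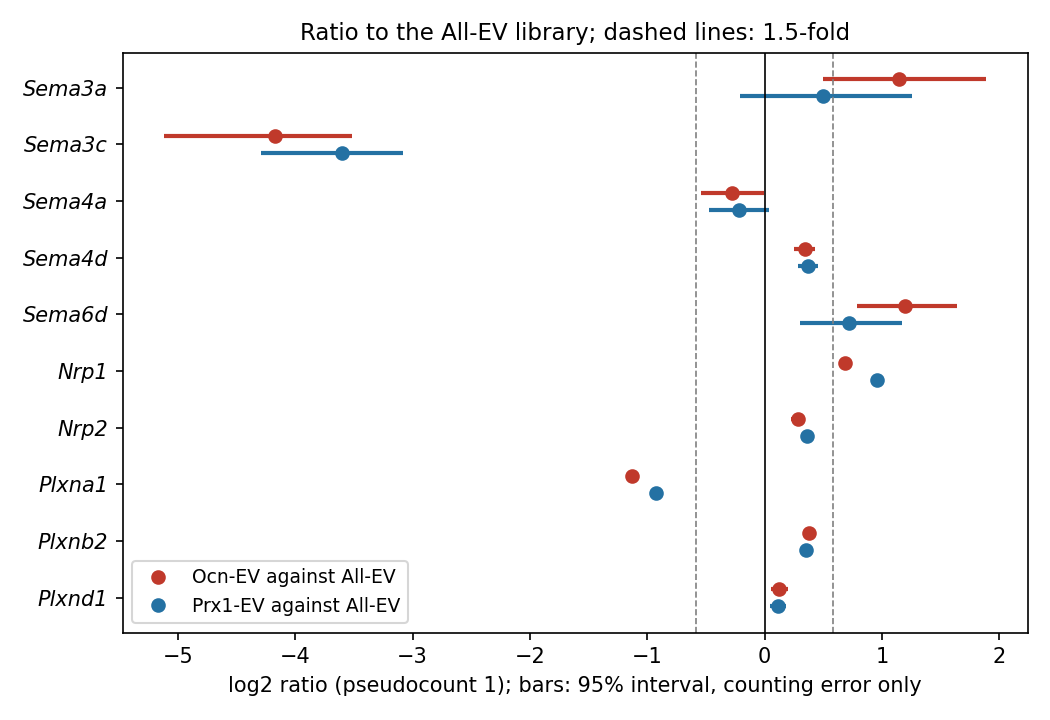
log2 ratio to the All-EV library for each of the 10 genes (Ocn-EV red, Prx1-EV blue), with bars for 95% counting intervals and dashed lines at 1.5-fold. Sema3c and Plxna1 lie left of the lower line in both comparisons, and Sema6d and Nrp1 right of the upper line.

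Among the receptors, Plxna1 was the most abundant with All-EV and stood lower in the other cultures. Plxna1 (Entrez 18844), at chr6:89316313-89362613, is a receptor of Sema3a (with Nrp1) and of Sema6d. It stood at 29079.7 with All-EV, 13288 with Ocn-EV and 15336 with Prx1-EV, from 25696, 12833 and 17580 reads. All-EV was high, and the levels with Ocn-EV and Prx1-EV were near each other. The level was 2.19-fold lower with Ocn-EV (2.14 to 2.24) and 1.90-fold lower with Prx1-EV (1.86 to 1.93), and the ratio of Ocn-EV to Prx1-EV was 0.866 (0.847 to 0.886). Lower ratios than that of Plxna1 were found in 2.96% and 4.50% of the genes compared. Equal totals gave log2 ratios of −0.87 and −0.70 and correction for length and GC −1.67 and −1.35, against −1.13 and −0.92 as deposited. GENCODE places an antisense transcript, Gm26811, over Plxna1, whose reads could not be set apart, since the sources used here do not say whether strand was used.

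The other plexins described here were not lower as deposited. Plxnb2 (Entrez 140570, chr15:89155546-89182018), a class B plexin that binds Sema4 ligands, stood at 7766 with All-EV, 10072 with Ocn-EV and 9906 with Prx1-EV. Its log2 ratios were 0.38 (0.33 to 0.42) and 0.35 (0.31 to 0.39). Plxnd1 (Entrez 67784, chr6:115954811-115995339), the receptor of Sema3e and, with neuropilins, of Sema3c, stood at 3161, 3443 and 3416, nearly level across the libraries. Its log2 ratios were 0.12 (0.05 to 0.20) and 0.11 (0.04 to 0.18). The sign for Plxnd1, and for Plxnb2 with Ocn-EV, depended on the scaling. Correction for length and GC gave −0.07 and 0.00 for Plxnb2 and −0.44 and −0.31 for Plxnd1, while equal totals gave 0.63 and 0.58 for Plxnb2 and 0.38 and 0.34 for Plxnd1.

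The make-up of the plexins differed between libraries. Plxna1 held 56.2% (55.8 to 56.7) of the reads of all 9 plexin genes with All-EV, 36.8% (36.3 to 37.3) with Ocn-EV and 38.7% (38.3 to 39.2) with Prx1-EV. Plxnb2 held 15.0% (14.7 to 15.3) of them with All-EV, 27.9% (27.4 to 28.4) with Ocn-EV and, with Prx1-EV, 11355 of 45421 reads (24.6 to 25.4%). The level of Plxnb2 itself was 1.30-fold that of All-EV with Ocn-EV and 1.28-fold with Prx1-EV, so its share also follows the smaller Plxna1 counts. Plxnc1 held 22.5% of the plexin sum per kilobase with All-EV, 22.7% with Ocn-EV and 25.1% with Prx1-EV. Per kilobase, Plxna1 stood 2.69-fold above Plxnb2 with All-EV (2.62 to 2.77), 1.11-fold above it with Prx1-EV (1.09 to 1.14) and at 0.949 of it with Ocn-EV (0.924 to 0.974). Summed per kilobase, the plexins stood at 6432 with All-EV, 4741 with Ocn-EV and 5162 with Prx1-EV, and the neuropilins at 2135, 3113 and 3611. The ratio of Nrp1 to Plxna1 per kilobase was 0.410 (0.397 to 0.424) with All-EV, 1.44 (1.40 to 1.49) with Ocn-EV and 1.51 (1.47 to 1.55) with Prx1-EV. Sema4d and the class B plexin Plxnb2 kept a nearly constant ratio. Sema4d stood at 0.386 of Plxnb2 with All-EV (0.366 to 0.406), 0.377 with Ocn-EV (0.360 to 0.394) and 0.391 with Prx1-EV (0.375 to 0.407). This was not particular to the pair, since Nrp2 stood 1.77-fold above Sema4d with All-EV, 1.70-fold with Ocn-EV and 1.76-fold with Prx1-EV. Plxnb1, the other class B plexin compared, was scarcer, at 84.9 with All-EV, 98.4 with Ocn-EV and 66.3 with Prx1-EV.

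**Figure D3:**
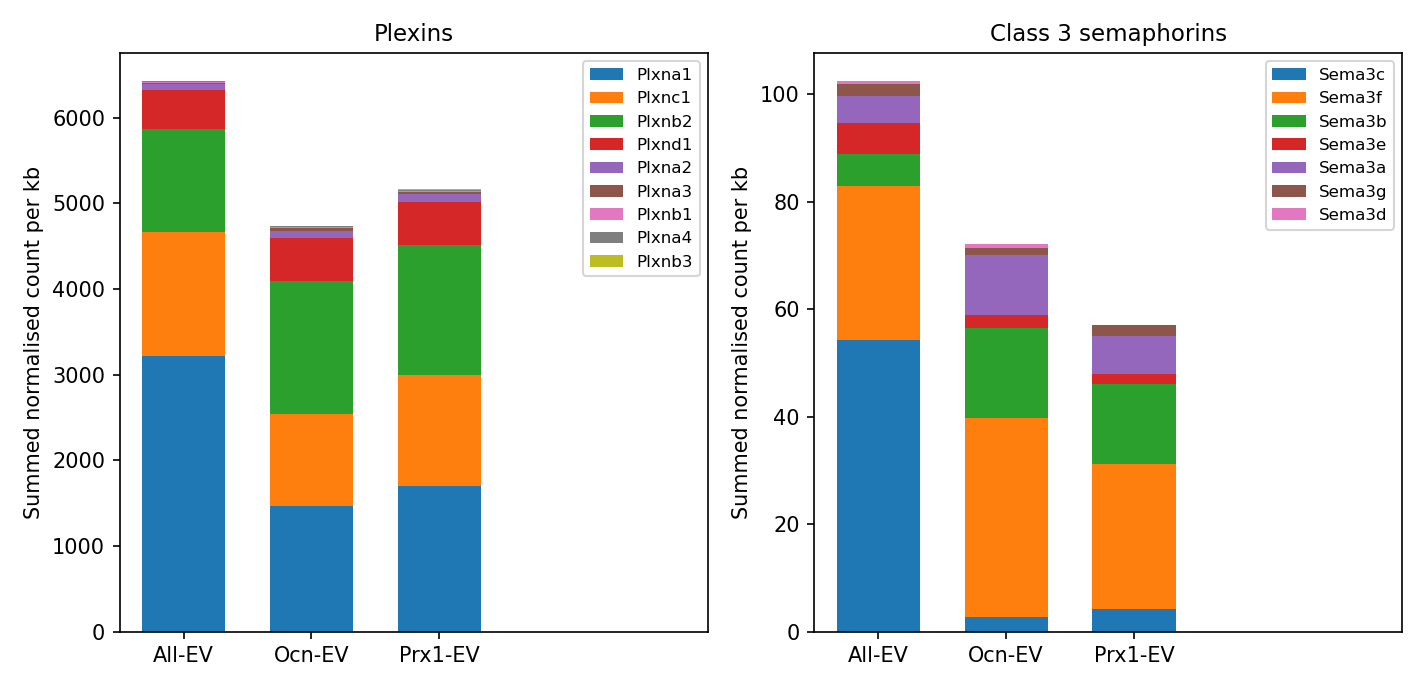
Summed normalised count per kilobase of the 9 plexins and the 7 class 3 semaphorins in each library, with each gene as a stacked segment. The Plxna1 segment and the Sema3c segment, at the bottom of each bar, are tallest with All-EV, where the totals reach 6432 and 103.

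Per kilobase, the levels of the 10 genes ran with All-EV in the order Plxna1, Nrp1, Plxnb2, Nrp2, Sema4d, Plxnd1, Sema4a, Sema3c, Sema6d, Sema3a, from 3219 down to 4.96. Sema4d and Plxnd1 did not differ beyond counting error there (ratio 1.01, 0.949 to 1.07). In Ocn-EV the order began with Nrp1 (2123), Plxnb2 (1550.2) and Plxna1 (1471), and with Prx1-EV with Nrp1 (2563), Plxna1 (1698) and Plxnb2 (1525). Sema3c was last in both (2.83 and 4.29), after Sema6d and Sema3a. All other neighbours in the 3 orders differed beyond counting error. The order rests on the longest protein-coding transcript of each gene in GENCODE, such as 3597 bases for Nrp1 and 9034 for Plxna1. In All-EV, 2.89% of 10798 genes with a known length stood above Plxna1 and 6.86% above Nrp1, against 77.9% above Sema3c. With Ocn-EV those shares were 5.21% for Plxna1 and 3.45% for Nrp1, and Sema3c took rank 10794. Sema3c reached the minimum level only through its All-EV value, so this low rank is partly set by that minimum.

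Counted together, with Ocn-EV 2 of the 9 genes compared were at least 1.5-fold higher than with All-EV (Sema6d and Nrp1), where 13.8% of all 11067 genes were, and 2 were lower (Sema3c and Plxna1), where 13.6% were. In either direction 27.4% of all genes were apart. With Prx1-EV the same 4 genes passed, 2 higher against a background of 12.7% and 2 lower against 12.7% (25.3% in either direction). The median log2 ratio of the 9 genes was 0.28 with Ocn-EV and 0.35 with Prx1-EV, beside −0.02 and 0.00 over all genes compared. Both comparisons use the same All-EV library, so their likeness is not independent. Between Ocn-EV and Prx1-EV none of the 9 passed 1.5-fold in either direction, where 2.24% of all genes were higher with Ocn-EV, 1.30% lower and 3.54% in either direction. Sema3c could be compared, and so counted among the lower genes, only because it was high with All-EV. Counts this small do not set the 9 genes apart from the rest.

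Scaling set how many passed. When the libraries were set to equal totals, the median of all genes compared stood at 0.24 (Ocn-EV) and 0.22 (Prx1-EV), the share of higher genes among those 1.5-fold apart went from 50.4% to 78.8% with Ocn-EV and from 50.0% to 77.9% with Prx1-EV, and 4 of the 9 genes were higher in each comparison (24.7% and 22.9% of all genes compared), with Sema4d added in both, Plxnb2 with Ocn-EV and Nrp2 with Prx1-EV. Sema3c and Plxna1 were lower, and Nrp1 higher, by at least 1.5-fold under each scaling and pseudocount tried and with correction for length and GC.

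**Figure D4:**
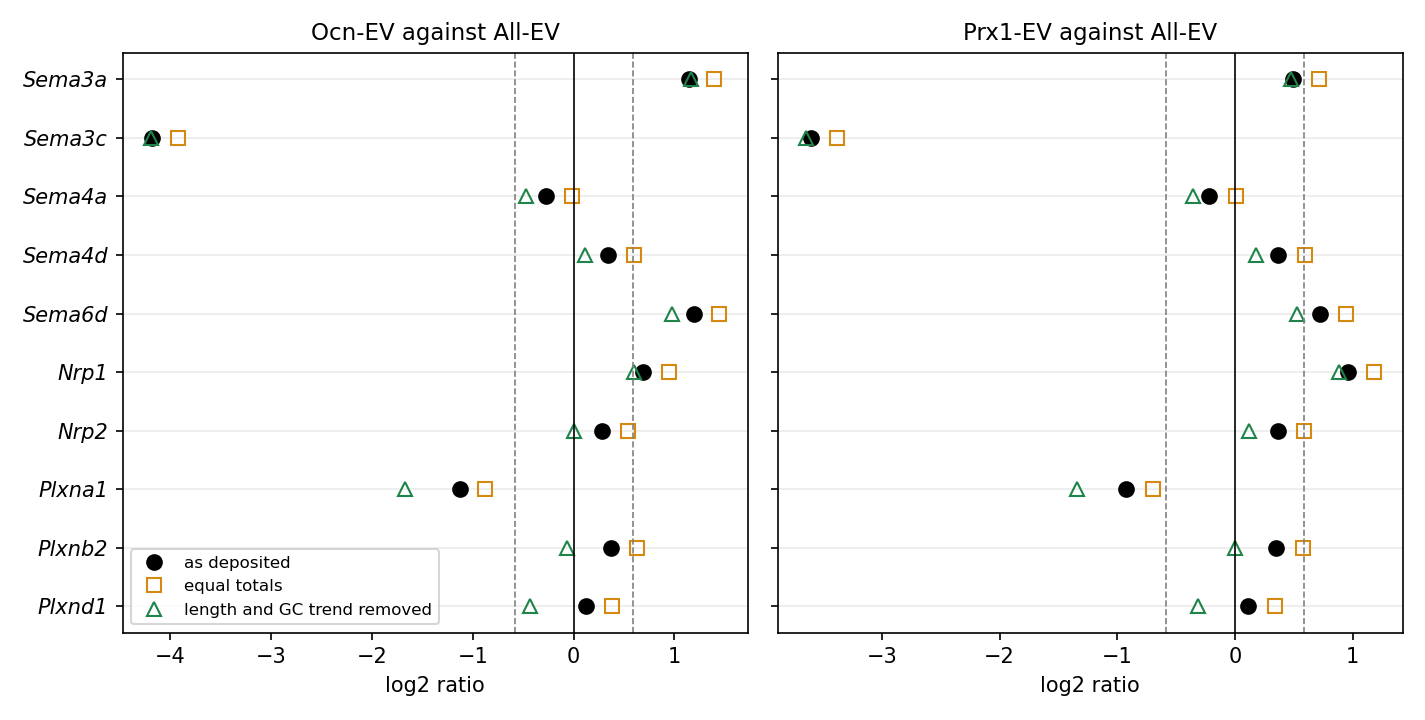
log2 ratio to All-EV of the 10 genes as deposited (black circles), with libraries set to equal totals (orange squares) and with correction for length and GC (green triangles), with dashed lines at 1.5-fold. Sema3c, Plxna1 and Nrp1 stay on their side of the lines. Plxna1, Nrp1, Sema4d, Plxnb2, Plxnd1 and Nrp2 move by more than their counting intervals.

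Of 21 other semaphorins and plexins, 11 reached the minimum level, and none was 1.5-fold lower in either comparison. Sema7a, a lipid-anchored semaphorin that binds integrins and Plxnc1, stood at 646 with All-EV, 1049.9 with Ocn-EV and 1100.1 with Prx1-EV, log2 ratios of 0.70 (0.55 to 0.85) and 0.77 (0.62 to 0.91). Its plexin receptor Plxnc1 stood at 10576, 7846 and 9465, lower than with All-EV by less than 1.5-fold. Sema4c stood at 199, 300 and 284, past 1.5-fold with Ocn-EV alone (0.59, 0.32 to 0.87, against 0.51, 0.24 to 0.79, with Prx1-EV), although the levels with Ocn-EV and Prx1-EV differed by less than counting error. Plxna3 was higher in both, at 132, 241 and 215, and Plxna4 passed 1.5-fold with Prx1-EV, at 117, 152 and 179. Sema4b, Sema4f, Sema6b, Plxna2 and Plxnb1 lay within 1.5-fold of All-EV. Over all 20 family genes compared, 5 were higher and 2 lower in each comparison as deposited, where 13.8% and 13.6% of all genes were with Ocn-EV and 12.7% and 12.7% with Prx1-EV. With equal totals 9 were higher and 2 lower, where 24.7% and 6.65% of all genes were with Ocn-EV and 22.9% and 6.51% with Prx1-EV. Sema3c, among the lower genes in each of these counts, passed the minimum only through its All-EV level.

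Other receptors that partner plexins or bind semaphorins went in both directions. Of 13 compared, 5 were higher and 4 lower with Ocn-EV (median log2 0.03), and 4 higher and 4 lower with Prx1-EV (0.18). Over all genes compared, 13.8% were higher and 13.6% lower with Ocn-EV, and 12.7% and 12.7% with Prx1-EV. Met, the receptor tyrosine kinase that associates with class B plexins, stood at 1573 with All-EV, 111 with Ocn-EV and 192 with Prx1-EV, log2 ratios of −3.82 (−4.13 to −3.54) and −3.03 (−3.25 to −2.83). L1cam and Nrcam, adhesion molecules that join neuropilin complexes, had log2 ratios of −1.36 and −1.84 with Ocn-EV and −1.17 and −1.04 with Prx1-EV. Cd72, the immune receptor of Sema4d, was higher, at 481, 1756 and 1607. Cspg4, a proteoglycan of pericytes and stromal progenitors, stood at 63.4, 243 and 203. Erbb2, higher with Ocn-EV, stood at 48.7 with All-EV and reached the minimum only through the other libraries. Trem2 and Tyrobp form a receptor complex with Plxna1 in osteoclasts and dendritic cells. Trem2 was nearly level, at 12339, 12396 and 13968, and Tyrobp, like Plxna1, was lower in both comparisons, at 5699, 4013 and 3786 (log2 −0.51 and −0.59, the latter just past 1.5-fold). Erbb2, L1cam, Trem2 and Tyrobp were named after their values were seen.

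Of 5 VEGF genes compared that share the neuropilins, Kdr alone passed 1.5-fold, at 399 with All-EV, 624 with Ocn-EV and 661 with Prx1-EV, while Flt1, Vegfb and Pgf had log2 ratios of 0.48, −0.33 and −0.15 with Ocn-EV and 0.47, −0.18 and 0.28 with Prx1-EV. Vegfa, named after its values were seen, stood at 13589, 11182 and 11971. Vegfc, a ligand of Nrp2 below the minimum level and named after its values were seen, had 56 reads with All-EV, 2 with Ocn-EV and 9 with Prx1-EV. Of 7 proteases compared that cut semaphorins or their receptors, 2 were higher in both comparisons and 0 lower. They were the proprotein convertases Pcsk6 (26.0, 121 and 98.6) and Pcsk7 (238, 460 and 437). Pcsk6 reached the minimum only through its Ocn-EV and Prx1-EV levels, so its place among the higher genes is partly set by that minimum. Beside the VEGF and protease counts, 13.8% of all genes compared were higher and 13.6% lower with Ocn-EV. With Prx1-EV these shares were 12.7% and 12.7%. Adamts1 and Adam17 lay within 1.5-fold. Furin, a convertase that processes class 3 semaphorins and was named after its values were seen, stood at 4338, 4134 and 4847.

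Genes downstream of plexins were mostly within 1.5-fold of All-EV. The counts below stand beside all genes compared, of which 13.8% were higher and 13.6% lower with Ocn-EV. With Prx1-EV 12.7% were higher and 12.7% lower. With equal totals 24.7% were higher with Ocn-EV and 22.9% with Prx1-EV. Of 22 small GTPases and regulators, 4 were higher and 1 lower in each comparison (medians 0.23 and 0.24), and with equal totals 10 were higher with Ocn-EV and 7 with Prx1-EV. The lower gene was Rras, a GTPase that plexins inactivate, at 1305 with All-EV, 655 with Ocn-EV and 605 with Prx1-EV. The related Mras was higher, at 108, 213 and 202. The guanine nucleotide exchange factors Farp1 and Farp2 had log2 ratios of 0.82 and 0.40 with Ocn-EV and 0.41 and 0.72 with Prx1-EV. Of 19 kinases, CRMP, MICAL and actin factors, 3 were higher and 0 lower with Ocn-EV, and 2 higher and 1 lower with Prx1-EV (medians 0.04 and 0.12). Mical1, an oxidase that disassembles actin downstream of plexins, stood at 221, 613 and 578, and the CRMP gene Dpysl3 at 188, 429 and 324. Dpysl2 passed 1.5-fold with Ocn-EV (0.60, against 0.19 with Prx1-EV), and Micall2 was lower with Prx1-EV (−0.61, against −0.39 with Ocn-EV). Of 13 other guidance genes compared (netrins, slits, ephrins and their receptors), 10 were higher with Ocn-EV and 9 with Prx1-EV, and 0 were lower. Their median log2 ratios were 1.34 and 0.87, and 1.60 and 1.09 with equal totals. Slit3 stood at 30.6, 137 and 122 and Ntn1 at 61.1, 219.5 and 218, and the log2 ratios of Unc5c and Efnb1 were 1.78 and 1.76 with Ocn-EV and 1.73 and 1.08 with Prx1-EV, beside stromal markers whose medians were 1.65 and 1.16 over 6 compared. The part of the stromal markers was not tested.

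**Figure D5:**
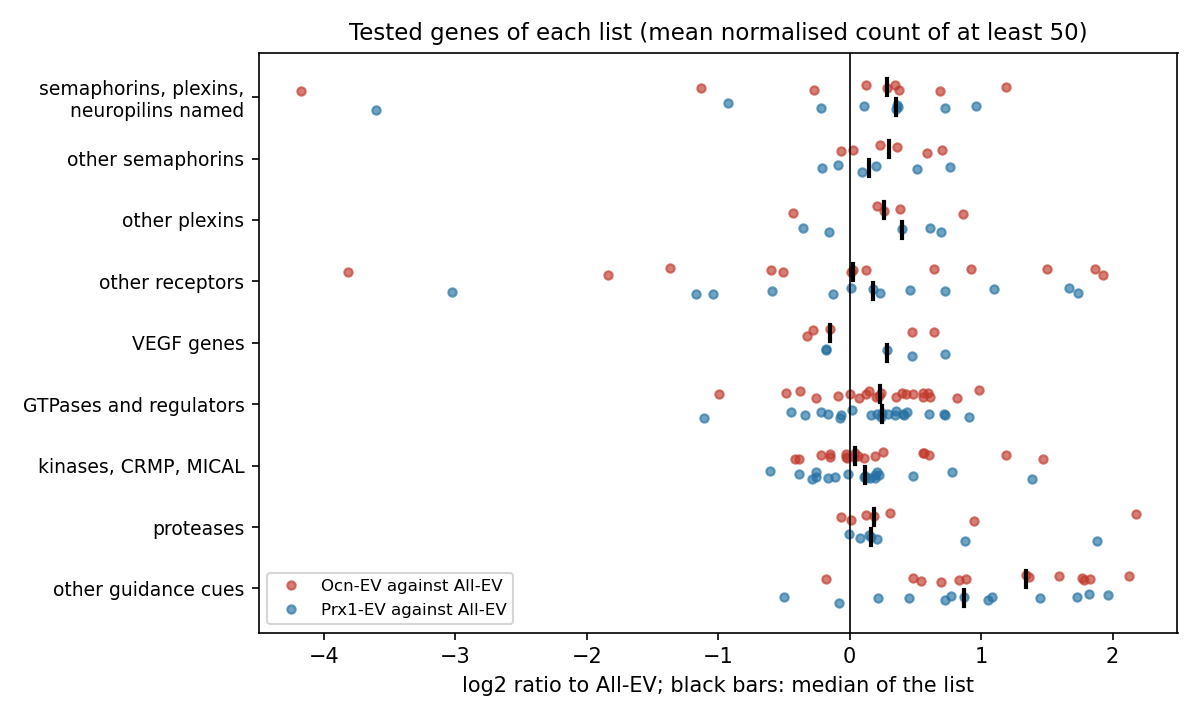
log2 ratio to All-EV of each gene at the minimum level, by list (Ocn-EV red, Prx1-EV blue, black bars for medians, points jittered vertically). Sema3c and Met are the leftmost points of their lists, and of the lists plotted, which hold no cell type markers, that of other guidance cues has the highest medians, 1.34 and 0.87. Some other guidance genes reached the minimum level only through the Ocn-EV and Prx1-EV libraries, where they were high.

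The genes whose pattern over the 3 libraries was most like those of the members at either end were found by the distance between their pairs of log2 ratios to All-EV, among 10668 genes. Closest to Sema3c were Cxcl2, C3, Serpinb9b, Clec4e and Slc27a6. Cxcl2, a neutrophil-attracting chemokine, stood at 349.7 with All-EV, 18.6 with Ocn-EV and 26.2 with Prx1-EV, at a distance of 0.0873. C3, the central complement component, stood at 2069, 131 and 147. The other distances ran up to 0.559. Closest to Sema6d were Igtp, Fkbp14, Hspb1, C1qc and Pou2f2, at distances of 0.0184 to 0.0522. C1qc, a complement subunit of macrophages, stood at 3836, 8556 and 6261. With 3 libraries many genes share a pattern like that of Sema6d. Ratios as low as those of Sema3c were rarer, with 0.0994% of the genes compared below it with Ocn-EV and 0.154% with Prx1-EV. Sema3c was compared only because it was high with All-EV, so this rarity is partly set by the minimum level.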

How the data were processed

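Messenger RNA was sequenced from 3 cultures, 1 per vesicle preparation, and groups follow the labels. The deposited table gives 1 signal value per gene and library, gene counts that the authors divided by a size factor. Per the submitters' processing notes, the tools were FastQC 0.74, Trimmomatic 0.38.1, HISAT2 2.2.1, featureCounts 2.0.3 and DESeq2 2.11.40.8, with build mm10, and their order and settings are not given in the sources used here. Whole reads were recovered by dividing by the value of 1 read (1.13 for All-EV, 1.04 for Ocn-EV, 0.872 for Prx1-EV), which gave whole numbers for 100% of values at a tolerance of 1e-06.

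Ratios were log2((a + 1)/(b + 1)), and intervals exact conditional binomial (Clopper-Pearson) at 95% from the reads, without the pseudocount. Reads carry no molecular identifiers, so intervals cover counting error only. Symbols and positions came from RefSeq on GRCm38.p6 (25275 of 27179 identifiers matched), and lengths from GENCODE vM21 for 10798 of the 11067 genes compared (97.6%). The trend on length and GC content was a second-order fit over those genes, chosen after seeing the data. An exact binomial test on reads with Benjamini-Hochberg adjustment was likewise added, and compared libraries and not conditions. Between Ocn-EV and All-EV it called 7177 of the 11067 genes compared (64.9%) and 8 of the 9 members. Between Prx1-EV and All-EV it called 7119 genes (64.3%) and 8 members. Between both Cre groups it called 2872 genes (26.0%) and 4 members.

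The members and gene lists were chosen with earlier results of these data known. Named were the 10 members, other family genes at a mean of at least 50, the 4 genes per list farthest from 0, and the 5 genes nearest in pattern to the members with the highest and lowest Ocn-EV ratio. Dcn, Lyz2, Atp6v0d2, Ctsk, Acp5, Pf4, Sema3b, Sema3e, Erbb2, Trem2, Tyrobp, L1cam, Vegfa, Vegfc and Furin were named after their values were seen. The summed megakaryocyte marker list is not reported here. Calculations were tested on simulated data. Python 3.11.15, numpy 2.4.6, pandas 2.3.3, scipy 1.17.1 and matplotlib 3.10.9 were used.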

Additional observations from a re-analysis of the deposited data

How the results depend on the processing

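No paired analysis was possible because each group has 1 library, and no replicate could be left out. Pseudocounts of 0.5 and 5, a median of 0 and equal upper quartiles left all 120 member ratios inside their counting intervals. Equal totals moved 12 of 30 outside them, removal of the length and GC trend 15 of 30, and none of the ratios past 1.5-fold changed sign. As deposited, 2 members were higher and 2 lower in each comparison with All-EV. With equal totals, 4 were higher in each. A minimum of 200 left 7 members, with 1 higher and 1 lower in each. A 2-fold threshold left 1 higher and 2 lower with Ocn-EV, and 0 higher and 1 lower with Prx1-EV. No share over all genes is given at that threshold, so these counts cannot be set beside a background. Without the length and GC trend, 1 was higher with Prx1-EV, where 1198 of 10798 genes were. Between Ocn-EV and Prx1-EV, 0 passed as deposited, Sema3a entered as 1 higher with a minimum of 10 or none, and Sema3c passed as 1 lower with a pseudocount of 0.5. Few reads limit Sema3c, Sema3a and Sema6d. Over all genes, 1528 were higher and 1506 lower with Ocn-EV than All-EV, and 2736 and 736 with equal totals. For Prx1-EV the counts were 1400 and 1402, and 2539 and 720 with equal totals. A minimum of 200 left 8180 genes, with 889 higher and 1111 lower (Ocn-EV) and 839 and 1002 (Prx1-EV). A minimum of 10 gave 2333 higher (Ocn-EV), and no minimum gave 4173 and 3642 (Ocn-EV) and 3892 and 3661 (Prx1-EV). Ocn-EV over Prx1-EV gave 248 higher and 144 lower, 843 and 511 with a minimum of 10, 58 and 18 with 200, and 2630 and 2082 with none.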
